A study of Rattus norvegicus with 24 samples.

Results

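Serine, threonine, glutamine, cysteine and selenocysteine (SeC) tRNAs were represented by 95 annotated features in the small RNA libraries of the rat perilesional cortex, with each feature standing for 1 annotated tRNA gene and named by a number, an amino acid and an anticodon. The members were taken by name, as every feature assigned to these 5 amino acids, and made up 95 of the 444 tRNA features and of the 1172 small RNA features (tRNA features and miRNAs) in the cortical count table. In the thalamic table they were 42 of 266 tRNA features and of 641 small RNA features. By amino acid the cortical features were 38 for Cys, 25 for Ser, 17 for Thr, 14 for Gln and 1 for SeC, with 12 anticodons in all. The libraries came from 12 adult male Sprague-Dawley rats, 6 with traumatic brain injury (TBI) by lateral fluid percussion, in which a fluid pulse is driven against the dura, and 6 controls that had the sham operation. Each rat gave 1 library from the perilesional cortex and 1 from the ipsilateral thalamus at 3 months after surgery, so that there were 4 groups of 6. The TBI rats had been picked by the study for chronic inflammation on imaging, which limits the comparison to such rats. The RNA of a library was pooled from several pieces of tissue of 1 rat, and in bulk tissue fewer cells of a type and less RNA per cell cannot be told apart.

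Transfer RNAs read codons in mRNA through their anticodon and carry the matching amino acid to the ribosome. Nucleases such as angiogenin and dicer cut them into tRNA-derived fragments (tRFs), and the reads of short-insert libraries come from such fragments. The codons of Ser, Thr, Gln and Cys are each read by 1 or several tRNAs that differ in the anticodon, whereas the SeC tRNA reads the stop codon UGA and inserts selenocysteine into selenoproteins, among them the glutathione peroxidases. The SeC tRNA is first charged with serine, and Ser and SeC tRNAs share a long variable arm. Anticodons are written here with T, as in the feature names, and are read from 5′ to 3′. The position of a read within its tRNA was not part of the tables, so that a value sums all fragments of 1 feature.

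Levels are given as CPM, the reads of a feature scaled to a common total of all reads in the small RNA table, without further scaling. The cortical libraries held 847752 to 4503681 reads and the thalamic libraries 615608 to 4530850 reads, counted over miRNAs and tRNA features together. A single read was worth 0.222 to 1.18 CPM in cortex and 0.221 to 1.62 CPM in thalamus, and a count of 0 allowed a level of up to 3.54 and 4.87 CPM in the shallowest libraries (3 reads, counting error only). All tRNA features took 6.49 to 18.1% of reads in TBI cortex and 6.11 to 14.5% in sham cortex, and 10.1 to 17.7% and 8.26 to 16.7% in thalamus. The thalamic library of sham rat 55 stood apart. It was among the shallowest, with 626552 reads, and its Ser-GCT sum was 777 CPM against 275 CPM in the next sham library. In cortex, sham rat 34 had the highest tRNA share of the shams (14.5%), and many of the results that rest on these libraries are given with and without them.

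The 5 amino acids together took only a small part of the tRNA reads, 2.48 to 4.88% in cortical libraries and 2.25 to 4.30% in thalamic ones, or 1985 to 8833 and 2652 to 7165 CPM. Within them Gln dominated, with 59.1 to 85.1% of their reads in cortex and 57.6 to 83.3% in thalamus. Ser followed with 6.83 to 25.2% and 8.04 to 28.8%, and SeC, a single feature, took 2.76 to 8.96% and 2.53 to 12.4%. Thr took 1.81 to 5.63% of the members' reads in cortex and 1.47 to 5.01% in thalamus. Cys, which had the most features in cortex, took 1.22 to 4.02% there and 0.775 to 2.30% in thalamus. The cortical sum takes all 38 Cys features, of which 8 had a cortical CPM value listed, and the thalamic sum only the 5 listed there. The Cys shares of the regions therefore rest on unlike sets of features and are not comparable. The 38 Cys features in cortex together held fewer reads than the single SeC feature in all 12 libraries, and so did the 5 Cys features listed in thalamus.

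By anticodon, Gln-CTG was the highest in all 12 libraries of both regions, at 3127 ± 1846 CPM (SD, n = 12) in cortex and 2778 ± 1225 CPM in thalamus. The next 4 cortical anticodons lay close together and did not keep 1 order across libraries. They were Gln-TTG at 246 ± 70.9 CPM (SD, n = 12), Ser-GCT at 241 ± 58.4 CPM, SeC-TCA at 238 ± 132 CPM and Ser-AGA at 206 ± 43.5 CPM, and each exceeded its lower neighbour among these 4 in only 7 of 12 libraries. Ser-TGA, at 119 ± 25.3 CPM, was below Ser-AGA in 12 of 12 libraries. Cys-GCA followed at 95.5 ± 33.4 CPM and exceeded each Thr anticodon in all 12 cortical libraries. Thr-TGT and Thr-AGT did not separate from each other, at 47.7 ± 17.1 and 44.3 ± 15.2 CPM, with Thr-TGT higher in 7 of 12 libraries. Thr-CGT at 25.9 ± 8.71 CPM and Ser-CGA at 12.8 ± 4.08 CPM were the lowest anticodons that were tested. Ser-ACT, with 1 annotated feature (tRNA3872), had 1 read in each of 3 cortical libraries and none in the other 9, fewer than the 3 reads that a count of 0 allows. In thalamus SeC-TCA ranked second among the same 11 anticodons, at 304 ± 169 CPM, followed by Ser-GCT at 302 ± 166 CPM, Gln-TTG at 283 ± 102 CPM and Ser-AGA at 276 ± 89.4 CPM, and neighbours among these 4 exceeded each other in only 6 or 7 of 12 libraries. Ser-TGA was below Ser-AGA in 12 of 12 libraries there too. Thr-AGT (67.7 ± 22.8 CPM) exceeded Cys-GCA (63.4 ± 27.95 CPM) in 9 of 12 libraries, and Cys-GCA exceeded Thr-TGT (58.9 ± 23.2 CPM) in 8. Thr-CGT and Ser-CGA were again the lowest. The tables of the regions were scaled separately, so that no test was made between the levels of cortex and thalamus. They also list unlike sets of features, 38 for Cys-GCA in cortex and 5 in thalamus. The place of Cys-GCA beside the Thr anticodons is therefore not comparable between the regions.

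**Figure D1:**
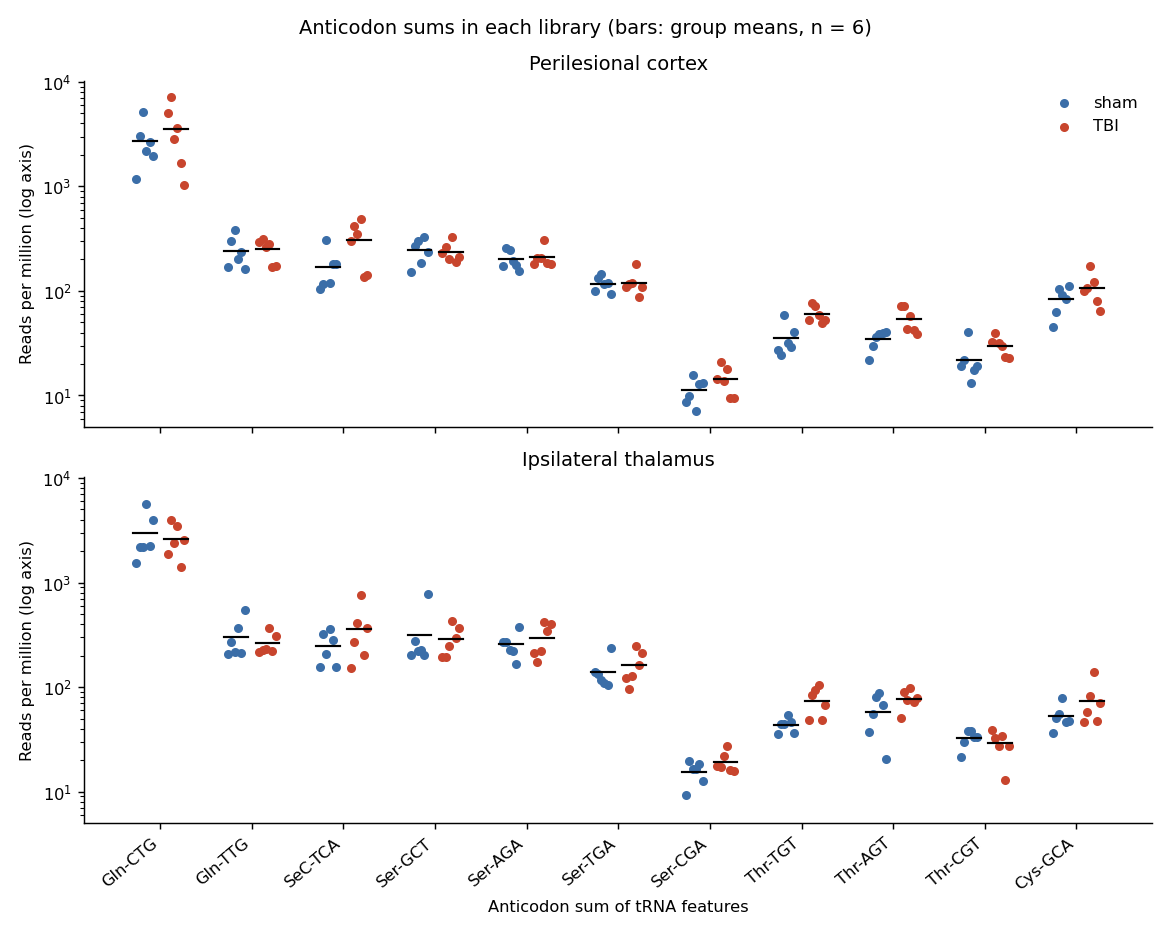
Summed CPM of the tRNA features of each anticodon (log axis) in each library of cortex (top) and thalamus (bottom), with sham libraries in blue, TBI libraries in red and group means as bars (n = 6). Gln-CTG lay above the other anticodons in every library, sham and TBI points overlapped for every anticodon, and the highest sham point of Ser-GCT in thalamus is rat 55.

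Among the features of 1 anticodon, several had almost the same value in each library. Gln-CTG had 9 features, and 5 of them, tRNA2102, tRNA1634, tRNA3809, tRNA7283 and tRNA10826, held 74.9 to 81.7% of its reads in cortical libraries and 74.2 to 81.5% in thalamic ones. The highest of these 5 was only 1.10 to 1.28 times the lowest in cortex and 1.09 to 1.34 times in thalamus. Another feature, tRNA4133, sat at 0.503 to 0.708 of their mean in cortical libraries and at 0.466 to 0.684 in thalamic ones. Of the 4 tested Ser-AGA features, the highest was 1.16 to 1.96 times the lowest in cortical libraries. For Ser-GCT, tRNA10567 was 1.63 to 2.83 times the mean of its 4 tested companions in cortex and 2.03 to 3.47 times in thalamus. These features were picked out after their values were seen. Near-identical tRNA copies share reads, and how the authors divided such reads is not given in the sources used here, so that single features of 1 anticodon are uncertain and are not independent of each other. The sums over an anticodon do not depend on how reads are divided among its own copies, provided that each read was counted once. If a read was counted at every copy it matches, sums over many copies would be raised. The share of Gln, the rank of Gln-CTG and the comparison with the single SeC feature carry this limit, which was not tested. In the RefSeq annotation of the assembly GRCr8, 38 genes carry the Cys-GCA name, 11 Gln-CTG and 5 Gln-TTG, beside 38, 9 and 5 features here. Other anticodons differ widely, with 52 genes named Ser-AGA beside 8 features, 35 named Thr-AGT beside 9 and 0 named SeC-TCA beside 1. The features are thus not the same set as these genes.

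The injury comparison was first made on single features. In cortex, 46 of the 95 members had enough reads to be tested. The other 49 had a mean of at most 2.51 CPM, 2 of them had no read in any library, and 30 of them were Cys-GCA features. None of the 46 passed an adjusted p of 0.05 in the fit over all small RNAs (edgeR quasi-likelihood test, Benjamini-Hochberg), in which 28 of 645 features or 4.34% did. At an unadjusted p under 0.05 there were 7 of the 46, against 18.4% of all features. Of these 7, 5 were higher and 2 lower in TBI. With TMM scaling, which sets 1 factor per library so that most features are centred, 24 of the 46 had a positive log2 fold change, with a median of 0.093, against a median of -0.0024 over all small RNAs. Without TMM, on library size alone, the median of all small RNAs shifted by 0.30 and 38 of the 46 were positive, so that the sign of a small difference in cortex depends on the scaling. The TMM factors averaged 1.11 in TBI and 0.910 in sham cortex, so that groups separated in CPM can overlap under TMM. DESeq2 called 1 of the 46, against 6.68% of all features, and the fit on library size 4, against 8.53%, all named below.

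In thalamus all 42 listed members were tested, and none passed (limma on log2(CPM + 1)), against 14 of 640 features or 2.19%. At an unadjusted p under 0.05 there were 2, both Thr-TGT features and both higher in TBI, against 7.97% of all features. A positive difference was found in 25 of the 42, with a median of 0.12, beside 0.059 over all small RNAs and 0.28 over the other 224 tRNA features. On CPM divided by TMM factors 22 of the 42 were positive (median 0.023, beside -0.035 over all small RNAs). With edgeR on reads recovered from the CPM values 20 were (median -0.012, beside -0.043). The sign of a small difference thus depends on the processing in thalamus too. When the reads recovered from the CPM values were tested with edgeR, 1 of the 42 passed, against 3.61% of all features. With limma on CPM divided by TMM factors 1 passed, against 2.66%, and it was the same feature, tRNA5100-ThrTGT. Fold changes on the log2(CPM + 1) scale understate the change of low features, and all Thr features but 1, all Cys features and both Ser-CGA features had group means below 30 CPM. Counts of members whose libraries did not overlap between the groups were near the share over all features. In cortex 2 of 46 had every TBI library above every sham library in CPM and 0 below. Of all 645 small RNAs 24 lay above and 3 below (4.19% in either direction). In thalamus 1 of 42 lay above and 0 below, against 16 above and 2 below of all 640 (2.81%).

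Summed by anticodon, none of the 11 tested anticodons passed in either region, against 6.24% of the 417 anticodon sums and miRNAs tested in cortex and 0.952% of the 420 in thalamus. An unadjusted p under 0.05 was reached by 3 of the 11 in cortex, against 21.6% of all rows, and by 1 of the 11 in thalamus, against 5.95%. DESeq2 called 0 of the 11 in cortex, against 10.3%, and library size alone 1, against 9.83%. In thalamus edgeR on recovered reads called 0 of the 11, against 1.2%. Summed by amino acid, none of the 5 passed, beside 6.63% of 392 rows in cortex and 0.253% of 395 in thalamus, and an unadjusted p under 0.05 was reached by 1 of the 5 in cortex, against 25.3% of all rows, and by 0 in thalamus, against 5.57%. In cortex DESeq2 called 0 of the 5, against 12.7% of the rows to which it gave an adjusted p, and library size alone 1, against 10.7%. The 3 anticodons with an unadjusted p under 0.05 in cortex were Thr-TGT, Thr-AGT and SeC-TCA, and the 1 in thalamus was Thr-TGT.

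**Figure D2:**
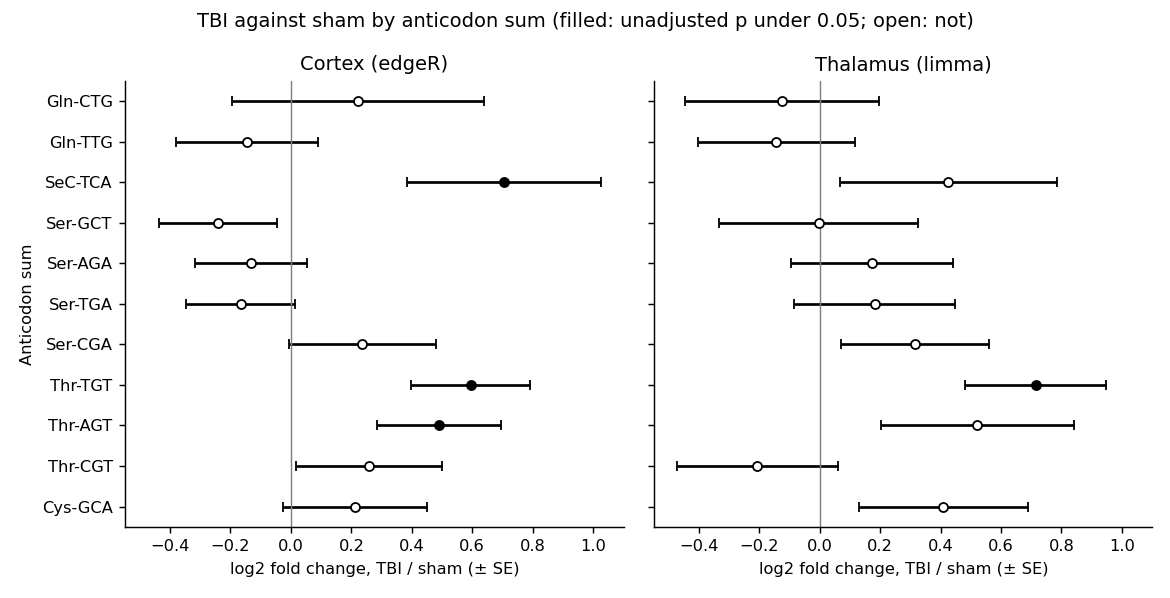
Difference between TBI and sham on the log2 scale for each anticodon sum, in cortex (edgeR with TMM scaling) and thalamus (limma on log2(CPM + 1)), with bars for 1 SE and filled points for an unadjusted p under 0.05. Thr-TGT lay furthest from 0 relative to its SE in both regions (0.59 in cortex and 0.71 in thalamus), and no point passed the adjusted threshold.

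Cell type marker miRNAs were measured in the same libraries, as CPM over miRNA reads alone. The summed neuronal markers (miR-124-3p, miR-9a-5p and miR-128-3p) were 249709 to 317491 in TBI and 301204 to 435666 in sham cortex, and 1 of the 3 passed as lower in TBI cortex. In thalamus they were 143660 to 232789 in TBI and 201970 to 276573 in sham. The 3 oligodendrocyte markers (miR-219a-5p, miR-219a-2-3p and miR-338-3p) were 3401 to 4584 in TBI and 2760 to 3499 in sham cortex and 12473 to 17762 in TBI and 11856 to 15202 in sham thalamus. Markers of leukocytes and microglia (miR-142-3p, miR-142-5p and miR-223-3p) were 61.0 to 123 in TBI and 36.3 to 84.2 in sham cortex and 79.9 to 198 in TBI and 17.2 to 126 in sham thalamus. The liver marker miR-122-5p was low, at most 7.45 in cortex and 19.1 in thalamus, and the 2 blood markers found of 3 (miR-451-5p and miR-144-3p) reached at most 92.2 in cortex and 57.3 in thalamus. Muscle markers (miR-1-3p, miR-133a-3p and miR-206-3p) were 474 to 672 in TBI and 402 to 843 in sham cortex, where 1 of 3 passed as lower in TBI, and 121 to 475 in TBI and 296 to 697 in sham thalamus. The choroid plexus markers (miR-449a-5p, miR-34b-5p and miR-34c-5p) were 282 to 1246 in TBI and 183 to 485 in sham cortex and 1283 to 7321 in TBI and 1292 to 4135 in sham thalamus. No marker was at 0 in all libraries of a region. In TBI cortex the summed neuronal markers lay lower, and the summed oligodendrocyte, leukocyte and choroid plexus markers higher, with ranges that overlapped those of the shams. Of the oligodendrocyte, leukocyte and choroid plexus markers tested in cortex, none passed. The part of the markers in the tRNA values given next was not tested.

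Thr-TGT, which reads the codon ACA, had the smallest p-value of the 11 anticodons in both regions. In cortex its sum ran from 49.5 to 75.9 CPM in TBI (median 55.6) and from 24.6 to 58.5 CPM in sham (median 30.7). All 6 TBI libraries were above the sham median, and 2 of them above every sham library. Sham rat 34, at 58.5 CPM, was the sham library that overlapped with the TBI group. The log2 fold change was 0.59 ± 0.20 (SE), with an adjusted p of 0.0927 (edgeR). Without sham rat 34 it was 0.72 with an adjusted p of 0.0191, and on library size alone 0.77 with an adjusted p of 0.0421, both past the threshold. Over all omissions of 1 rat the cortical value ran from 0.48 to 0.72, with adjusted p-values from 0.0191 to 0.226 (edgeR). In thalamus the sum ran from 48.1 to 105 CPM in TBI (median 75.1) and from 35.3 to 53.9 CPM in sham (median 44.2). Again all 6 TBI libraries exceeded the sham median, and 4 exceeded every sham library. The difference there was 0.71 ± 0.23 (SE), with an adjusted p of 0.337 (limma), and it ran from 0.60 to 0.83 when any 1 rat was left out.

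The 3 tested Thr-TGT features all had positive differences in both regions. tRNA5100-ThrTGT ran from 19.5 to 36.0 CPM in TBI (median 25.1) and from 9.58 to 18.1 CPM in sham (median 14.1) in thalamus, and was the 1 member there whose groups did not overlap. Its reads were few, 12 to 143 in TBI and 6 to 73 in sham libraries. The thalamic difference was 0.91 ± 0.25 (SE) on the log2 scale, with an adjusted p of 0.0799 (limma). It passed with an adjusted p of 0.0301 when recovered reads were tested with edgeR (0.88), of 0.0498 with CPM divided by TMM factors (0.82) and of 0.0479 without TBI rat 56 (1.00). With each rat left out in turn, the difference ran from 0.83 to 1.00 and the adjusted p from 0.0479 to 0.239 (limma). In cortex the same feature ran from 16.3 to 22.5 CPM in TBI (median 19.3) and from 5.87 to 18.3 CPM in sham (median 9.42). Only sham rat 34, at 18.3 CPM, was above any TBI library. The cortical log2 fold change was 0.57 ± 0.22 (SE), with an adjusted p of 0.176 (edgeR), 0.86 and 0.0376 on library size alone, and 0.72 with an adjusted p of 0.0843 without sham rat 34. With other rats left out it was as low as 0.48, with adjusted p-values up to 0.307 (edgeR). tRNA1312-ThrTGT ran from 15.6 to 40.7 CPM in TBI (median 26.01) and from 11.8 to 17.6 CPM in sham (median 13.5) in thalamus, with a difference of 0.79 ± 0.26 (SE) and an adjusted p of 0.183 (limma). In cortex tRNA1312-ThrTGT gave 0.38 ± 0.20 (SE), with an adjusted p of 0.306 (edgeR), and 0.51 without sham rat 34. The remaining feature, tRNA875-ThrTGT, singled out after its values were seen, had 18.2 ± 5.40 CPM (SD, n = 6) in TBI cortex and 9.65 ± 4.23 CPM in sham cortex, differing by 0.65 ± 0.26 (SE) on the log2 scale (adjusted p = 0.187, edgeR) there and 0.39 ± 0.28 (SE) in thalamus (adjusted p = 0.772, limma). Its cortical difference was 0.81 without sham rat 34 (adjusted p = 0.0918, edgeR), and its thalamic difference 0.26 without sham rat 55.

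Thr-AGT, whose first anticodon base is changed to inosine in mature tRNA, ran in cortex from 38.7 to 72.2 CPM in TBI (median 50.2) and from 21.9 to 40.6 CPM in sham (median 37.3). Of the 6 TBI libraries 5 were above every sham library in CPM, which has no TMM scaling. On the log2 scale the difference was 0.49 ± 0.20 (SE), with an adjusted p of 0.184 (edgeR), and 0.33 without TBI rat 22. All 4 tested Thr-AGT features were positive in cortex and in thalamus, beside 140 of 228 and 179 of 224 other tRNA features. In thalamus tRNA3878-ThrAGT gave 1.05 ± 0.51 (SE) (adjusted p = 0.640, limma), with 0 reads in sham rat 55, without which the difference was 0.51. tRNA3878-ThrAGT had the largest cortical difference among them, 1.08 ± 0.37 (SE) (adjusted p = 0.125, edgeR), from 5.35 to 13.8 CPM in TBI (median 8.03) and from 0.509 to 8.11 CPM in sham (median 3.23). That rested on 6 to 35 reads in TBI and 1 to 15 in sham libraries, and it passed on library size alone (1.40, adjusted p = 0.0425). The highest Thr-AGT feature, tRNA14184, gave 0.23 ± 0.24 (SE) in cortex (adjusted p = 0.656, edgeR) and 0.45 ± 0.31 (SE) in thalamus (adjusted p = 0.772, limma), where it was 0.26 without sham rat 55. The thalamic Thr-AGT sum ran from 50.5 to 98.0 CPM in TBI (median 76.7) and from 20.7 to 87.7 CPM in sham (median 61.4). Its difference was 0.52 ± 0.32 (SE), with an adjusted p of 0.853 (limma), and the lowest sham value was that of rat 55, without which it was 0.26 with an adjusted p of 0.650.

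Thr-CGT had 1 tested feature, tRNA3238. In cortex its sum ran from 22.7 to 39.3 CPM in TBI (median 30.6) and from 13.2 to 40.7 CPM in sham (median 19.3), with sham rat 34 as the highest library of both groups at 40.7 CPM. Its log2 fold change came to 0.26 ± 0.24 (SE) in cortex (adjusted p = 0.541, edgeR) and -0.21 ± 0.27 (SE) in thalamus (adjusted p = 0.900, limma). Without sham rat 34 the cortical value was 0.43 with an adjusted p of 0.215 (edgeR), and the thalamic one was -0.00070 without TBI rat 56. For tRNA3238-ThrCGT alone the values were 0.16 ± 0.22 (SE) (adjusted p = 0.761, edgeR) and -0.21 ± 0.26 (SE) (adjusted p = 0.867, limma), and the cortical one was 0.34 without sham rat 34. Over all Thr features, the cortical sum averaged 144 ± 27.1 CPM (SD, n = 6) with TBI and 91.9 ± 23.8 CPM in sham, with 4 of 6 TBI libraries above every sham library. Its log2 fold change was 0.42 ± 0.16 (SE), with an adjusted p of 0.143 (edgeR). Without sham rat 34 the Thr sum passed with 0.53 and an adjusted p of 0.0477, and on library size alone with 0.65 and 0.0385. Leaving out each rat in turn moved it between 0.35 and 0.53, with adjusted p-values from 0.0477 to 0.260 (edgeR). The thalamic Thr level averaged 181 ± 40.8 CPM (SD, n = 6) with TBI against 134 ± 36.1 CPM in shams, a difference of 0.44 ± 0.23 (SE) on the log2 scale, with an adjusted p of 0.834 (limma). Without sham rat 55 this difference was 0.34 with an adjusted p of 0.479 (limma). As a share of all tRNA reads, Thr took 0.102 to 0.176% in TBI cortex and 0.0686 to 0.112% in sham cortex. The total tRNA share of reads was higher in TBI cortex on average as well, at 12.9% ± 4.01 (SD, n = 6) against 10.6% ± 2.87, and its part in the Thr values was not tested.

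SeC was represented by 1 feature, tRNA1937-SeCTCA, which is at once its feature, its anticodon sum and its amino acid sum. In cortex it ran from 137 to 492 CPM in TBI (median 326) and from 104 to 308 CPM in sham (median 150.3), on 116 to 1287 and 154 to 689 reads. The TBI libraries were split, with 4 at 303 CPM and above (rats 22, 24, 45 and 52) and 2 at 137 and 141 CPM (rats 56 and 63), the last 2 within the sham range. These 2 rats also had the lowest cortical tRNA share of the TBI group, 10.6% and 6.49%. Among shams, rat 34 stood highest at 308 CPM. The fitted difference was 0.59 ± 0.28 (SE) as a feature, with an adjusted p of 0.264 (edgeR), and 0.70 ± 0.32 (SE), with an adjusted p of 0.215 in the fit of anticodon sums, whose TMM factors differ. Without sham rat 34 the feature gave 0.76 with an adjusted p of 0.118. With other rats left out it was as low as 0.45, with adjusted p-values up to 0.454 (edgeR). In thalamus the feature ran from 151 to 757 CPM in TBI (median 319.5) and from 155 to 361 CPM in sham (median 244). Rat 52 was the highest TBI library there too, and the groups overlapped broadly. The thalamic difference was 0.43 ± 0.36 (SE), with an adjusted p of 0.801 (limma), and it ran from 0.17 to 0.64 when 1 rat was left out, lowest without TBI rat 52.

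**Figure D3:**
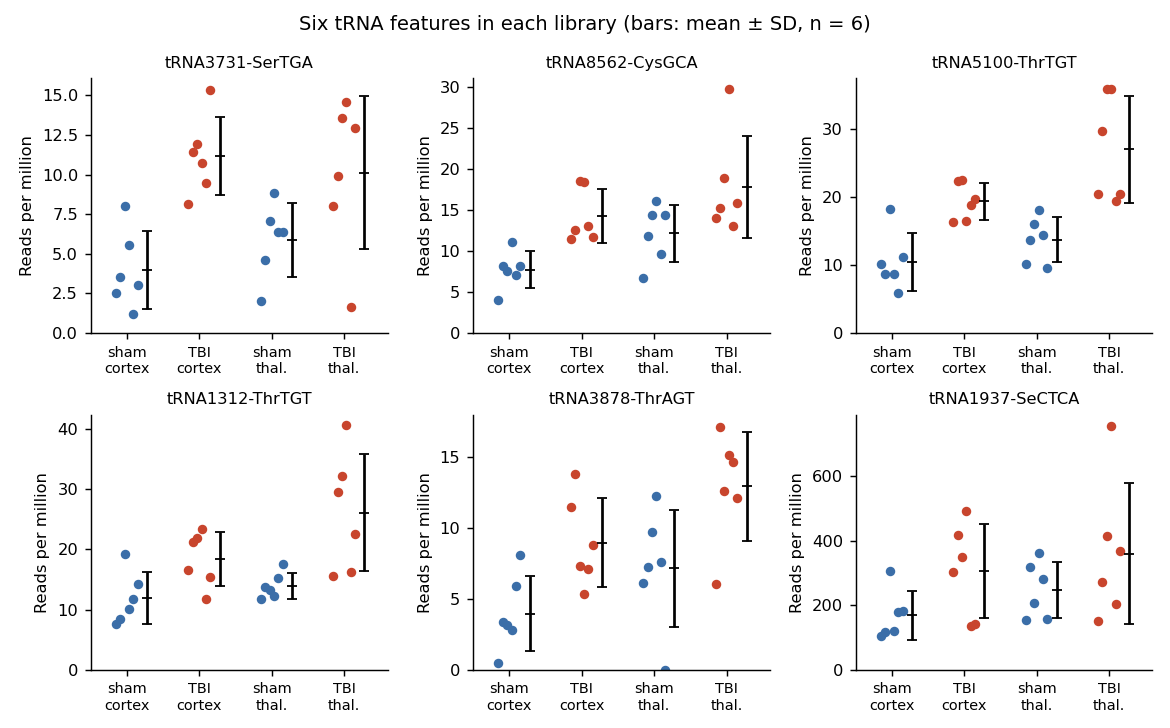
CPM of 6 tRNA features in each library by group, with the mean and SD beside the points (n = 6 per group). In CPM, TBI libraries lay above all sham libraries for tRNA3731-SerTGA and tRNA8562-CysGCA in cortex and for tRNA5100-ThrTGT in thalamus, and the groups overlapped in the other panels. The cortical separations are lost under TMM scaling.

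Of the 15 tested Ser features in cortex, 12 had a negative and 3 a positive difference under TMM scaling, and none passed. On library size alone 6 were negative and 9 positive, while all 8 tested Thr features were positive under both scalings. Of all 645 small RNAs 324 were negative under TMM and 118 on library size. The summed Ser level averaged 583 ± 131 CPM (SD, n = 6) in TBI cortex and 576 ± 113 CPM in sham cortex, and ran from 471 to 835 CPM in TBI (median 540.1) and from 432 to 712 CPM in sham (median 570.5). The groups overlapped, with only TBI rat 52 outside the sham range. On the log2 scale TBI differed from sham by -0.24 ± 0.17 (SE) (adjusted p = 0.393, edgeR with TMM) and turned to 0.020 on library size alone. The 12 negative features under TMM included all 5 of Ser-GCT and all 4 of Ser-AGA, of which 4 and 1 were negative on library size. Ser-GCT gave -0.24 ± 0.19 (SE), Ser-AGA -0.13 ± 0.19 (SE), Ser-TGA -0.17 ± 0.18 (SE) and Ser-CGA 0.24 ± 0.24 (SE), with adjusted p-values of 0.460, 0.714, 0.616 and 0.591 (edgeR). On library size alone Ser-GCT was -0.051, and Ser-AGA turned to 0.075 and Ser-TGA to 0.039. The leading feature of Ser-GCT, tRNA10567, gave -0.22 ± 0.18 (SE) (adjusted p = 0.537, edgeR) and turned to 0.060 on library size. tRNA491-SerAGA gave -0.24 ± 0.23 (SE) (adjusted p = 0.624, edgeR) and turned to 0.082, and was -0.078 without sham rat 32 under TMM. tRNA3899-SerGCT, singled out after its values were seen because its unadjusted p was under 0.05, gave -0.42 ± 0.20 (SE) (adjusted p = 0.264, edgeR), from 46.1 ± 13.6 CPM (SD, n = 6) in sham and 41.1 ± 10.9 CPM in TBI libraries, and -0.14 on library size alone. tRNA9814-SerCGA gave 0.15 ± 0.28 (SE) (adjusted p = 0.834, edgeR), and 0.036 without TBI rat 24.

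Within Ser-TGA, features differed in direction. tRNA3731-SerTGA had the smallest p-value of all members in cortex. It ran from 8.16 to 15.4 CPM in TBI (median 11.1) and from 1.17 to 8.04 CPM in sham (median 3.30). In CPM every TBI library was above every sham library, with a gap between 8.04 CPM in sham rat 34 and 8.16 CPM in TBI rat 22. These libraries had TMM factors of 1.11 and 1.17, so that their order turns and the groups overlap under TMM. tRNA3731 was a low feature, with 8 to 29 reads in TBI and 1 to 18 in sham libraries. The cortical difference was 1.04 ± 0.30 (SE), with an adjusted p of 0.0609 (edgeR). It passed with an adjusted p of 0.0362 in DESeq2 (1.05), of 0.0170 on library size alone (1.35) and of 0.0411 without sham rat 34 (1.23). With other rats left out the difference was as low as 0.89 and the adjusted p as high as 0.149 (edgeR). In thalamus tRNA3731-SerTGA ran from 1.62 to 14.6 CPM in TBI (median 11.4) and from 2.05 to 8.85 CPM in sham (median 6.39). There 4 TBI libraries were above every sham library, while TBI rat 56 had a single read, and the difference was 0.58 ± 0.43 (SE) (adjusted p = 0.772, limma). Leaving out 1 rat moved it between 0.36 and 0.96. tRNA3896-SerTGA, the highest Ser-TGA feature, ran the other way in cortex, from 37.7 to 80.7 CPM in TBI (median 45.7) and from 46.8 to 70.8 CPM in sham (median 61.1). Its log2 fold change was -0.53 ± 0.19 (SE), with an adjusted p of 0.152 (edgeR), with 4 TBI libraries below every sham library and TBI rat 52 above the sham range. On library size alone it was -0.22 with an adjusted p of 0.516 (edgeR). In thalamus tRNA3896-SerTGA gave 0.19 ± 0.29 (SE) (adjusted p = 0.880, limma), and 0.37 without sham rat 55.

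In thalamus 12 of 14 tested Ser features had a positive difference, beside 179 of the other 224 tRNA features and 362 of the 640 small RNAs. Without sham rat 55 all 14 had, beside 351 of the 640. The Ser level averaged 763 ± 257 CPM (SD, n = 6) with TBI against 729 ± 339 CPM in shams, with a difference of 0.094 ± 0.28 (SE) (adjusted p = 0.936, limma). The sham mean was raised by rat 55, at 1406 CPM, and without that rat the other shams ran from 490.0 to 701 CPM. The difference was then 0.30 with an adjusted p of 0.542 (limma). Ser-GCT differed by -0.0041 ± 0.33 (SE) with all rats and by 0.29 without rat 55. Ser-AGA, Ser-TGA and Ser-CGA differed by 0.17 ± 0.27 (SE), 0.18 ± 0.27 (SE) and 0.32 ± 0.24 (SE), with adjusted p-values of 0.914, 0.914 and 0.853 (limma), and Ser-TGA by 0.34 without rat 55. Among the features, tRNA2466-SerCGA gave 0.36 ± 0.25 (SE) from 6.50 to 14.6 CPM in TBI (median 9.60) and from 4.604 to 8.79 CPM in sham (median 7.92), tRNA9814-SerCGA 0.24 ± 0.28 (SE) and tRNA491-SerAGA 0.31 ± 0.28 (SE). tRNA10567-SerGCT gave -0.095 ± 0.31 (SE) with all rats and 0.18 without rat 55. Within Ser, Ser-GCT took 37.0 to 43.2% of reads in TBI cortex and 34.7 to 51.6% in sham cortex, and 35.6 to 40.6% and 32.7 to 55.3% in thalamus. Ser-TGA took 18.5 to 22.1% in TBI cortex and 18.5 to 23.1% in sham cortex.

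Gln, the most abundant of the 5, had a wide spread between rats and did not separate the groups. Gln-CTG ran in cortex from 1025 to 7200 CPM in TBI (median 3215) and from 1165 to 5171 CPM in sham (median 2443). TBI rat 24 was the highest library and TBI rat 63 the lowest, so that the spread within the TBI group covered the whole sham range. The log2 fold change was 0.22 ± 0.42 (SE) with an adjusted p of 0.824 (edgeR), and ran from -0.12 to 0.41 when 1 rat was left out. In thalamus it ran from 1412 to 3927 CPM in TBI (median 2481) and from 1538 to 5604 CPM in sham (median 2223), and the difference was -0.12 ± 0.32 (SE) (adjusted p = 0.934, limma). The leading feature, tRNA2102-GlnCTG, gave 0.14 ± 0.37 (SE) in cortex (adjusted p = 0.888, edgeR) and -0.050 ± 0.34 (SE) in thalamus (adjusted p = 0.985, limma). Without 1 rat the cortical value of tRNA2102 went to -0.11 without TBI rat 24, its thalamic value to 0.17 without sham rat 38, and that of thalamic Gln-CTG to 0.089 without sham rat 38. All 14 tested Gln features had a negative difference in thalamus, with a median of -0.16, beside 278 of the 640 small RNAs. Without sham rat 55, 7 of the 14 were negative and 7 positive, with a median of -0.0073. tRNA4199-GlnCTG had the smallest thalamic p-value of the Gln features, with -0.35 ± 0.28 (SE) (adjusted p = 0.789, limma), and -0.16 without TBI rat 56.

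Gln-TTG was lower and, in cortex, less variable. It ran from 171 to 317 CPM in TBI (median 272) and from 161 to 379 CPM in sham (median 219) in cortex, and all 5 of its features were negative under TMM, with -0.15 ± 0.24 (SE) for the sum (adjusted p = 0.766, edgeR) and 0.050 on library size alone. tRNA3897-GlnTTG gave -0.31 ± 0.21 (SE), tRNA1673-GlnTTG -0.33 ± 0.25 (SE) and the leading feature, tRNA8827-GlnTTG, -0.20 ± 0.21 (SE), with adjusted p-values of 0.441, 0.506 and 0.665 (edgeR). On library size they were -0.0062, -0.014 and 0.11, and 2 of the 5 features were negative. In thalamus Gln-TTG ran from 216 to 369.5 CPM in TBI (median 229) and from 207 to 549 CPM in sham (median 244), and sham rat 55 was again the highest. The difference was -0.14 ± 0.26 (SE) (adjusted p = 0.923, limma), and 0.047 with an adjusted p of 0.942 without that rat. tRNA426-GlnTTG gave -0.24 ± 0.27 (SE) and tRNA8827-GlnTTG -0.026 ± 0.25 (SE) there, with adjusted p-values of 0.867 and 0.988 (limma), and -0.017 and 0.14 without sham rat 55. The ratio of Gln-CTG to Gln-TTG reads within a library ran from 5.97 to 22.7 in TBI cortex and from 6.81 to 13.6 in sham cortex. Over both anticodons, Gln gave 0.12 ± 0.39 (SE) in cortex (adjusted p = 0.912, edgeR) and -0.12 ± 0.31 (SE) in thalamus (adjusted p = 0.936, limma). Leaving out 1 rat took these to -0.17 without TBI rat 24 and 0.077 without sham rat 38.

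Cys had a single anticodon, Cys-GCA, and 8 of its 38 features were tested in cortex and 5 in thalamus. The cortical sum ran from 63.6 to 172 CPM in TBI (median 104) and from 44.8 to 113 CPM in sham (median 87.8), with rat 45 the highest TBI library. Its log2 fold change was 0.21 ± 0.24 (SE) (adjusted p = 0.629, edgeR) and went to -0.018 without rat 45. Of the 8 features 6 were positive. tRNA8562-CysGCA ran from 11.4 to 18.6 CPM in TBI (median 12.8) and from 4.07 to 11.1 CPM in sham (median 7.85), with all TBI libraries above all sham libraries in CPM, although only narrowly, 11.4 against 11.1 CPM. Those libraries, TBI rat 22 and sham rat 38, had TMM factors of 1.17 and 0.851, so that the groups overlap under TMM. The log2 fold change with TMM scaling was 0.53 ± 0.24 (SE), with an adjusted p of 0.254 (edgeR). On library size alone it was 0.86 and passed with an adjusted p of 0.0400. In thalamus tRNA8562-CysGCA overlapped, from 13.0 to 29.7 CPM in TBI (median 15.5) and from 6.65 to 16.0 CPM in sham (median 13.1), with a difference of 0.51 ± 0.27 (SE) (adjusted p = 0.671, limma). The leading feature, tRNA8526-CysGCA, gave 0.43 ± 0.28 (SE) in cortex (adjusted p = 0.411, edgeR) and 0.34 ± 0.29 (SE) in thalamus (adjusted p = 0.812, limma). For tRNA8527-CysGCA the values were 0.47 ± 0.29 (SE) (adjusted p = 0.382, edgeR) and 0.41 ± 0.34 (SE) (adjusted p = 0.789, limma). The cortical value of tRNA8527 was 0.20 without TBI rat 45, and the thalamic values of tRNA8526 and tRNA8527 were 0.15 without TBI rat 52 and 0.21 without sham rat 55. The thalamic sum ran from 46.1 to 140.2 CPM in TBI (median 64.7) and from 36.3 to 79.2 CPM in sham (median 49.5). All 5 thalamic features were positive, beside 179 of the other 224 tRNA features. The sum differed by 0.41 ± 0.28 (SE) (adjusted p = 0.853, limma). It ran from 0.20 to 0.53 when 1 rat was left out, lowest without TBI rat 52, the highest library at 140.2 CPM.

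The amino acids were then compared with each other within each library, as log2 ratios of their summed reads, which need no scaling between libraries. There were 10 pairs in each region, and p-values from an exact permutation test (two-sided, all 924 ways to divide the 12 libraries) were adjusted over the 20 tests. The smallest p this design allows is 0.00216. No pair passed after adjustment. The smallest value was that of Ser to Thr in cortex, where the log2 ratio was 2.01 ± 0.30 in TBI and 2.66 ± 0.31 in sham (SD, n = 6). TBI libraries ran from 1.69 to 2.52 and sham libraries from 2.31 to 3.13, with 5 of 6 TBI libraries below every sham library. The difference of -0.65 had an exact permutation p of 0.00649 and an adjusted p of 0.130. It ran from -0.75 to -0.55 when 1 rat was left out, and was -0.70 without the leading feature of each amino acid. Ser to SeC in cortex had the second smallest p, with a difference of -0.79 (exact permutation test, p = 0.0303, adjusted p = 0.303) and 4 of 6 TBI libraries below every sham library. In thalamus the pairs with the smallest p were Thr to Gln, at 0.57 (exact permutation test, p = 0.0671, adjusted p = 0.357), and Gln to Cys, at -0.54 (exact permutation test, p = 0.0714, adjusted p = 0.357). Without sham rat 55 these were 0.35 and -0.40. Ser to Thr differed by -0.35 in thalamus (exact permutation test, p = 0.457), and by -0.040 without that rat. Thr to SeC differed by -0.14 in cortex and 0.019 in thalamus (exact permutation test, p = 0.604 and 0.946). The other 13 pair comparisons had p-values between 0.0909 and 0.942 in the exact permutation test.

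**Figure D4:**
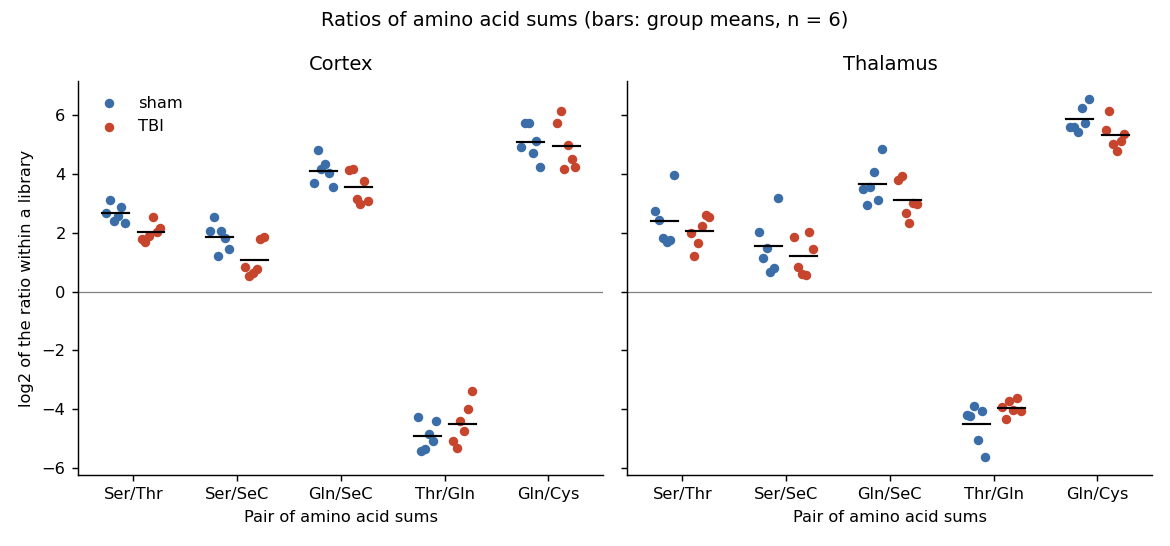
The log2 ratio of summed reads of 2 amino acids within each library, for 5 of the 10 pairs in cortex (left) and thalamus (right), with sham in blue, TBI in red and bars for the group means (n = 6). For Ser to Thr in cortex 5 of 6 TBI libraries lay below every sham library, and in thalamus the highest Ser to Thr ratio is sham rat 55.

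Whether the injury difference itself differed between the regions was asked for the 41 members listed in both CPM tables, in a fit over the 595 small RNAs that the tables shared (limma, interaction of injury and region over 24 libraries). None of the 41 passed, 0% of all features did, and none of the 41 had an unadjusted p under 0.05, against 19 of the 595. With the rat as a block the number called stayed at 0. The differences, thalamus minus cortex, ran from -0.83 to 0.44 with a median of -0.16, beside a median of -0.20 over all 595. That fit used log2(CPM + 1) without TMM in both regions, so these values do not equal thalamic minus cortical values given above. tRNA3731-SerTGA had the lowest value, -0.83 ± 0.54 (SE), and tRNA3238-ThrCGT the smallest p, 0.0549 (adjusted p = 0.999, limma). For tRNA5100-ThrTGT the value was 0.022 ± 0.33 (SE), and for tRNA1937-SeCTCA -0.38 ± 0.53.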

How the data were processed

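Small RNA libraries with short inserts were made from total RNA of 24 tissue samples and sequenced on 1 platform. The authors deposited whole read counts per tRNA feature and miRNA for the cortex, and CPM values for the cortex and thalamus, after mapping to the rat genome build RGSC3.4 and annotation with miRBase. Their processing notes name FastQC. The aligner and the treatment of reads that match several tRNA copies are not given in the sources used here. The deposited tables list all fragments of a tRNA as 1 feature.

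Features were assigned to amino acid and anticodon by name, and sums were taken over the deposited counts or CPM. Cortical counts were tested with edgeR 4.0.16 (quasi-likelihood test, filterByExpr, TMM factors) in R 4.3.3, and SE was obtained from the fold change and its F statistic (absolute value over root F). Thalamic CPM were tested with limma 3.58.1 on log2(CPM + 1), for features of at least 1 CPM in at least 6 libraries, which understates the change of low features. Each fit covered all small RNAs of its table, with 1 row per feature, per anticodon or per amino acid beside the miRNAs, and p-values were adjusted by the Benjamini-Hochberg method over all rows. Whole reads were recovered from the thalamic CPM by 1 constant per library, taken from the deposited miRNA counts. All 7692 values came within 0.001 reads of a whole number, and these reads were tested with edgeR as an alternative, as were DESeq2 1.42.0 for the cortex, other scalings and filters, and the omission of each rat. Ratios were tested in Python 3.11.15 with scipy 1.17.1, numpy 2.4.6 and pandas 2.3.3. The scripts were tested on simulated data.

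Both libraries of a rat share the animal, so that rat numbers pair the regions. The deviations of a rat's 2 libraries from their group means correlated at -0.24 to 0.64 over features, with a median of 0.32, and above 0.1 in 8 of 12 rats. Between different rats of a group the correlations ran from -0.60 to 0.69, with a median of -0.075, and were above 0.1 in 17 of 60 pairs. No 2 libraries of a group agreed within sampling noise (chi-square per degree of freedom of at least 42.9 in 30 pairs per region). Named features were, in each region, those past the adjusted threshold, the member with the highest mean of each anticodon in cortex, and the 2 members of each amino acid with the smallest p. The members and lists were chosen with earlier results of these data known. Messenger RNA tables of the same rats were not used here.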

Additional observations from a re-analysis of the deposited data

Results flagged for a closer look

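In 128 groups of 6 libraries (features and sums named in the report), 14 had a library whose distance from its nearest neighbour was above Dixon's 95% critical share of the group's range, where chance gives about 1 group in 20, or 6.4 groups. A feature and the sums that hold it share reads, so the groups were not independent and 14 cannot be weighed against 6.4.

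The thalamic library of sham rat 55 was the highest of its group in 6 of the 14. Its Ser sum was 1406 CPM, with the next library of its group at 701 CPM, its Ser-GCT sum 777 CPM, with the next library of its group at 275 CPM, and its Ser-TGA sum 238 CPM, with the next library of its group at 138 CPM. Among its features, tRNA10567-SerGCT stood at 294 CPM, with the next library of its group at 105 CPM, tRNA3896-SerTGA at 119.7 CPM, with the next library of its group at 60.3 CPM, and tRNA426-GlnTTG at 84.6 CPM, with the next library of its group at 40.9 CPM. The same library was the lowest sham for Thr-AGT.

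The cortical library of TBI rat 52 stood apart for Ser (835 CPM, with the next library of its group at 603 CPM), Ser-AGA (306 CPM, with the next library of its group at 208 CPM), Ser-TGA (182 CPM, with the next library of its group at 119.9 CPM) and tRNA3896-SerTGA (80.7 CPM, with the next library of its group at 52.3 CPM). In thalamus the same rat had the highest tRNA8562-CysGCA, 29.7 CPM, with the next library of its group at 18.8 CPM.

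The cortical library of sham rat 34 was the highest for Thr-CGT, 40.7 CPM, with the next library of its group at 22.0 CPM, and for its leading feature tRNA3238-ThrCGT, 37.1 CPM, with the next library of its group at 20.2 CPM. The thalamic library of sham rat 26 was the lowest for tRNA2466-SerCGA, 4.604 CPM, with the next library of its group at 7.59 CPM.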

How the results depend on the processing

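Depth limited the low features, since 1 read was worth up to 1.62 CPM in the shallowest library. The cause of the changes below was not tested. On library size only, the median of all small RNAs in cortex shifted by 0.30. In cortex, 0 members passed with TMM from all rows, TMM from miRNAs alone or either filter, 4 on library size only and 1 with DESeq2, and 1 anticodon and 1 amino acid (Thr-TGT and Thr) passed on library size only. In thalamus 1 member passed with CPM divided by TMM factors and 1 with edgeR on recovered reads. On library size only the sign turned for tRNA10567-SerGCT (0.060), tRNA491-SerAGA (0.082), tRNA8827-GlnTTG (0.11), Gln-TTG (0.050), Ser-AGA (0.075), Ser-TGA (0.039) and Ser (0.020). In thalamus it turned for Ser-GCT with TMM factors (0.0055), for Ser with edgeR (-0.010) and for Cys to SeC without the leading features (0.017).

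When each rat was left out in turn, the number of members that passed ran from 0 to 1 in cortex and from 0 to 1 in thalamus, that of anticodons from 0 to 1 in cortex and that of amino acids from 0 to 1 in cortex. The share of all rows that passed in the fits without 1 rat is not given here, so that these counts cannot be set beside it. The signs of small differences turned in these fits. In cortex tRNA2102-GlnCTG ran from -0.11 to 0.33, Cys-GCA from -0.018 to 0.26, Gln-CTG from -0.12 to 0.41, Ser-AGA from -0.28 to 0.016 and Gln from -0.17 to 0.34. In thalamus tRNA10567-SerGCT ran from -0.19 to 0.18, tRNA2102-GlnCTG from -0.23 to 0.17, tRNA8827-GlnTTG from -0.13 to 0.14, Gln-CTG from -0.28 to 0.089, Gln-TTG from -0.25 to 0.047, Ser-GCT from -0.13 to 0.29, Gln from -0.28 to 0.077 and Ser from -0.030 to 0.30. Among the ratios, cortical Gln to Cys ran from -0.35 to 0.043 and Thr to SeC from -0.28 to 0.020, and thalamic Ser to Gln from -0.031 to 0.46, Thr to Cys from -0.060 to 0.15, Thr to SeC from -0.12 to 0.19 and Cys to SeC from -0.11 to 0.084.

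With the rat as a block, the number of members whose injury difference differed between regions was 0 with limma (estimated correlation 0.22) and 0 with edgeR on reads, and the block changed no other call. Within a region the groups hold different rats, so that no block applies there.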
